A study of Mus musculus with 6 samples.

Results

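The 7 genes described here were *Ntf3*, *Bdnf*, *Ntrk2*, *Ntrk3*, *Ngfr*, *Gfra1* and *Ret*, taken by their symbols as named rows among the 14865 genes listed for the cochlear duct of P8 mice. All 7 were listed and all 7 passed the minimum of 40 normalized reads in at least 1 library that was set for testing, as did 14455 genes in all. RNA-seq had been performed on 3 libraries of *Gfi1*+/+ and 3 libraries of *Gfi1*cre/+ cochlear ducts from C57BL/6 mice at postnatal day 8. In *Gfi1*cre/+ mice, 1 copy of *Gfi1* is replaced by a knocked-in Cre recombinase, and *Gfi1* itself encodes a zinc finger transcription factor of hair cells and blood cells. Each *Gfi1*+/+ library came from the 2 cochleae of 1 mouse, whereas each *Gfi1*cre/+ library pooled 6 cochleae of 3 mice, so the spread within *Gfi1*cre/+ is between pools and that within *Gfi1*+/+ is between animals. No other allele or treatment was given for either genotype, and the line was kept on a C57BL/6J background after an origin on mixed 129S6 and C57BL/6J strains.

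Neurotrophins are secreted proteins that keep neurons alive and guide their axons. NT-3, encoded by *Ntf3*, acts mainly through the receptor tyrosine kinase TrkC (*Ntrk3*), and BDNF (*Bdnf*) acts through TrkB (*Ntrk2*), while the p75 receptor (*Ngfr*) binds all neurotrophins and their uncleaved precursors. In the cochlea, hair cells and supporting cells make NT-3 and BDNF, and the spiral ganglion neurons that innervate them carry TrkB and TrkC and depend on these ligands for survival during development. *Gfra1* and *Ret* belong to a related system: GFRα1 is a membrane-anchored co-receptor that binds GDNF and presents it to the receptor tyrosine kinase RET. *Nefm*, which encodes the medium neurofilament protein of axons, served as the neuronal reference.

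Values are normalized reads, which are counted reads divided by 1 size factor per library, and values of single libraries are given in the order of the replicates, 1 to 3. The counted reads on genes ranged from 13603908 to 19359753 per library and were fewer in each *Gfi1*+/+ library than in any *Gfi1*cre/+ library. *Gfi1* stood at 146.9, 160.2 and 151.9 normalized reads in *Gfi1*+/+ libraries, against 135.8, 129.6 and 138.7 in *Gfi1*cre/+ libraries. The genotypes did not overlap, as for 7.52% of all genes tested, and the log2 difference was -0.18 (adjusted p = 0.999, limma). The paper states that Cre replaces only part of the gene, so reads of the remaining transcript still count toward *Gfi1*. In newborn cochleae, its RT-qPCR found less transcript of the replaced exons in *Gfi1*cre/+. *Gfi1*+/+ replicate 1 stood apart from the other 5 libraries. It lay at -44.0 on the first principal component, which held 54.3% of the variance, against -0.304 to 16.2 for the others, and 203 genes (1.40%) were over 2 times higher in it than in the next library, compared with 1 to 16 genes for any other library. Of all genes tested, 24.9% were highest in *Gfi1*+/+ replicate 1. The summed level of 15 neuron markers was 13607 in this library and 3664 to 6221 in the others, and 14 of the 15 were highest there. Of 11 markers of Schwann and satellite glia, 5 were highest there, among them the myelin gene *Mbp*. No defining marker of either list was at 0 in any library. All 11 hair cell markers listed in the table were detected as well, with sums of 9559 to 11013, so the labelled tissue carried RNA of its sensory cells. The Y-linked genes *Ddx3y*, *Kdm5d*, *Eif2s3y* and *Uty* summed to at most 2.10 normalized reads in *Gfi1*+/+ libraries and to 794 to 1621 in *Gfi1*cre/+ libraries, so genotype and sex cannot be told apart in these samples. These are bulk measurements, in which fewer cells of a type and less RNA per cell cannot be told apart.

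*Ntf3* and *Ngfr* are shown first by sequence because their levels varied together more closely across the 6 libraries than those of any other pair of the 7 genes. RefSeq start windows were found for 5 of the 7 genes (2 for *Ntf3*, 7 for *Bdnf*, and 1 each for *Ntrk2*, *Ngfr* and *Gfra1*), each running from 250 bases before to 50 bases after a start site of GRCm38.p6. The stretches below are the parts of these windows that lie upstream of the first annotated exon base, at chr6:126164961-126165210 on the minus strand for the second start of *Ntf3*, intronic to the transcripts that begin at the first start, and at chr11:95587736-95587948 on the minus strand for *Ngfr*, read 5′ to 3′ in the direction of the gene. Capitals mark the GC box GGGCGG.
Ntf3: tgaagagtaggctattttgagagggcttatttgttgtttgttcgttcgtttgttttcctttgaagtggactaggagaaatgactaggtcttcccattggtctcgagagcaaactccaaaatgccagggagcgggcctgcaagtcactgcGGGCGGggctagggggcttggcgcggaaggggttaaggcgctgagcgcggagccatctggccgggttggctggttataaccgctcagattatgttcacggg
Ngfr: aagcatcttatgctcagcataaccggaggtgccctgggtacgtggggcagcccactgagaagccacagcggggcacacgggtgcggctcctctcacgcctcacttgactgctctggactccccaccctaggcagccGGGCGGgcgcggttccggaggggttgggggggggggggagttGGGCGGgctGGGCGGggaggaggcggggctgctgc
The letters GGGCGG, searched on both strands, occurred 1 time in the 250 bases of *Ntf3* and 3 times in the 213 bases of *Ngfr*. The first 250 bases held them in 32.7% of all 32851 RefSeq windows and the first 213 bases in 27.4%. The E-box CANNTG occurred 1 time in each stretch, without overlapping a GC box, and in 66.2% and 61.1% of windows over the same lengths, and the CRE TGACGTCA, found in 1.55% and 1.07%, occurred in neither. G and C made up 54.0% of the *Ntf3* stretch and 70.9% of the *Ngfr* stretch. The 84 bases upstream of the first start of *Ntf3*, not printed here, held 0 GC boxes, which 8.67% of windows held over that length. These matches describe the letters and are not evidence of binding.

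The levels of the 7 genes spanned a wide range once divided by length, with the GDNF co-receptor at the top and BDNF at the bottom. Per 1000 merged exon bases, *Gfra1* averaged 324 ± 24.2 normalized reads (SD, n = 6 libraries), *Ntrk2* 142 ± 5.39, *Ngfr* 83.1 ± 16.9, *Ntf3* 33.7 ± 4.39, *Ret* 15.6 ± 8.55, *Ntrk3* 7.19 ± 0.672 and *Bdnf* 6.18 ± 1.36. On the same scale, *Gfra1* reached or exceeded 79.5% of the 14388 genes with an annotated length and *Ntrk2* 57.5%, whereas *Ntrk3* and *Bdnf* reached 2.22% and 1.57%. Neighbours in this order were compared within libraries by a two-sided exact sign-flip permutation test over the 6 libraries, which cannot go below 0.0312. The order was taken from the same 6 libraries, so these p-values are not an independent test of it. They describe how consistently a gene lay above its neighbour at the exon lengths used. *Gfra1* above *Ntrk2*, *Ntrk2* above *Ngfr*, *Ngfr* above *Ntf3* and *Ret* above *Ntrk3* held in 6 of 6 libraries (adjusted p = 0.0469 each). *Ntf3* was above *Ret* in 5 of 6 libraries (adjusted p = 0.075, exact permutation test), the exception being *Gfi1*+/+ replicate 1. *Ntrk3* was above *Bdnf* in 4 of 6 libraries (adjusted p = 0.188, exact permutation test), so these last neighbours did not differ beyond their spread. The order was the same when each gene was divided by its longest transcript, but values moved: *Ntrk2* averaged 313 and *Ntrk3* 11.0 per 1000 bases. The log2 distance of *Gfra1* above *Ntrk2* was then 0.29 in place of 1.19, and that of *Ntrk2* above *Ngfr* 1.94 in place of 0.80. Annotated full-length TrkC transcripts run from 2678 to 19703 bases, so the low place of *Ntrk3* depends on the length used. A gene's value sums all of its transcripts, so the full-length TrkB of 821 residues and the annotated shorter forms of 466 to 492 residues, which lack the kinase domain, enter *Ntrk2* together, as do TrkC forms of 825 to 864 and of 612 residues in *Ntrk3*.

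**Figure D1:**
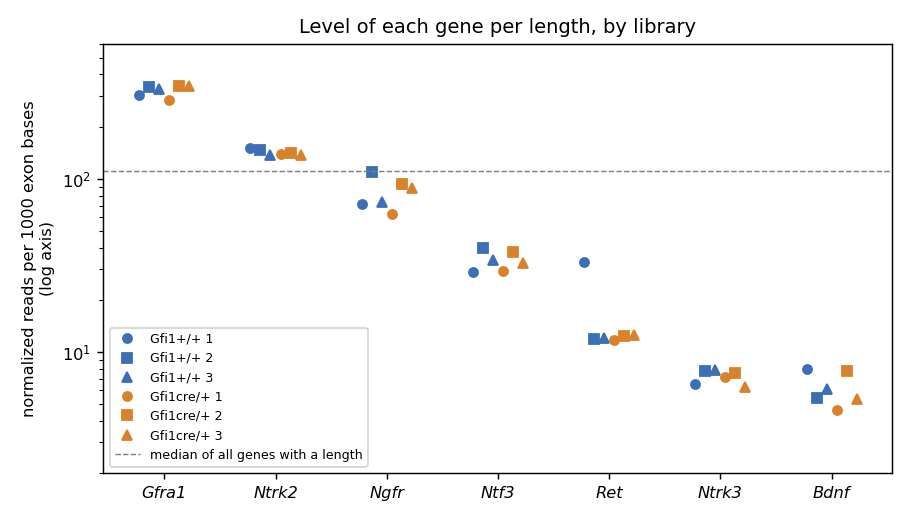
Normalized reads per 1000 merged exon bases (log axis) of the 7 genes in each of the 6 libraries, blue for *Gfi1*+/+ and orange for *Gfi1*cre/+, in falling order of the mean, with the median of all genes (111) as a dashed line. *Gfra1* and *Ntrk2* lie above that line in all 6 libraries, and *Ret* in *Gfi1*+/+ replicate 1 lies at the level of *Ntf3*.

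Neither neurotrophin ligand differed between the genotypes beyond the spread of the libraries. *Ntf3* (NT-3; chromosome 6, 126101412 to 126166910, minus strand, GRCm38) stood at 49.4, 68.1 and 58.0 normalized reads in *Gfi1*+/+ libraries, against 50.5, 64.8 and 55.7 in *Gfi1*cre/+ libraries. The lowest and the highest library were both *Gfi1*+/+ and enclosed all *Gfi1*cre/+ values. The log2 difference, *Gfi1*cre/+ minus *Gfi1*+/+ on log2(normalized reads + 1), was -0.03 (SE 0.191, 95% confidence interval -0.46 to 0.40, adjusted p = 0.999, limma). *Bdnf* (chromosome 2, 109674700 to 109727007, plus strand) stood at 49.4, 33.5 and 38.0 normalized reads in *Gfi1*+/+ libraries, against 28.7, 47.9 and 33.0 in *Gfi1*cre/+ libraries. The highest and the lowest library belonged to different genotypes, but the ranges overlapped, and the log2 difference was -0.15 (SE 0.271, interval -0.77 to 0.46, adjusted p = 0.999, limma). *Bdnf* rested on 32 to 54 counted reads and *Ntf3* on 40 to 73 per library. Counting error alone then gives a coefficient of variation of 13.6% to 17.7% for *Bdnf* and of 11.7% to 15.8% for *Ntf3*, beside observed values of 20.3% (*Gfi1*+/+) and 27.6% (*Gfi1*cre/+) for *Bdnf* and of 16.0% and 12.7% for *Ntf3*. Changes of *Bdnf* to between 0.588 and 1.38 of its level lay within the 95% confidence interval and were not excluded. That interval rests on the spread between libraries. Of the exon bases of *Bdnf*, 14.4% are shared with an antisense transcript, as are 7.60% of those of *Gfra1*. Reads of such pairs cannot be separated here, and the strand setting of the counting was not stated.

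None of the 3 neurotrophin receptor genes differed between the genotypes beyond the spread of the libraries. *Ntrk2* (TrkB; chromosome 13, 58806569 to 59133970, plus strand) stood at 2889.6, 2843 and 2642 normalized reads in *Gfi1*+/+ libraries, against 2679.8, 2712 and 2655 in *Gfi1*cre/+ libraries. All 3 *Gfi1*cre/+ values lay inside the *Gfi1*+/+ range. Its log2 difference of -0.06 (SE 0.0543, adjusted p = 0.999, limma) was the most tightly bounded of the 7, with an interval that corresponds to 0.883 to 1.05 of the *Gfi1*+/+ level. *Ntrk3* (TrkC; chromosome 7, 78175959 to 78738012, minus strand) stood at 196, 235 and 236 normalized reads in *Gfi1*+/+ libraries, against 216, 229 and 189 in *Gfi1*cre/+ libraries. The ranges overlapped almost entirely (log2 difference -0.07, SE 0.111, interval -0.32 to 0.18, adjusted p = 0.999, limma). *Ngfr* (p75; chromosome 11, 95568818 to 95587735, minus strand) stood at 246, 376 and 254 normalized reads in *Gfi1*+/+ libraries, against 217, 319.6 and 306 in *Gfi1*cre/+ libraries. Replicate 2 was the highest library within each genotype, and the log2 difference was -0.05 (SE 0.189, interval -0.48 to 0.38, adjusted p = 0.999, limma). Among the neurotrophin receptors *Ngfr* varied most within a genotype, with a coefficient of variation of 24.96% in *Gfi1*+/+ and 19.9% in *Gfi1*cre/+ where counting error alone gives 5.27% to 7.09%.

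Of the GDNF receptor pair, the co-receptor differed by less than the spread of the libraries, and the value of the kinase rested on a single library. *Gfra1* (chromosome 19, 58235604 to 58455909, minus strand) stood at 1668, 1862 and 1794 normalized reads in *Gfi1*+/+ libraries, against 1561, 1873 and 1889.9 in *Gfi1*cre/+ libraries. Replicate 1 was the lowest of each genotype, and the log2 difference was -0.0037 (SE 0.0825, interval -0.19 to 0.18, adjusted p = 0.999, limma). *Ret* (chromosome 6, 118151745 to 118197718, minus strand) stood at 223, 80.6 and 81.2 normalized reads in *Gfi1*+/+ libraries, against 79.2, 83.4 and 84.9 in *Gfi1*cre/+ libraries. The 5 libraries other than *Gfi1*+/+ replicate 1 lay between 79.2 and 84.9, while that library was 2.73 times their mean. The log2 difference of -0.46 (SE 0.343, interval -1.23 to 0.32, adjusted p = 0.999, limma) became 0.03 (SE 0.141, interval -0.29 to 0.35) without *Gfi1*+/+ replicate 1. In that library the neuron marker sum was highest too. Of 11 markers of Schwann and satellite glia, 5 were highest there, beside 24.9% of all genes tested. The part of neurons or glia in the value of *Ret* was not tested.

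**Figure D2:**
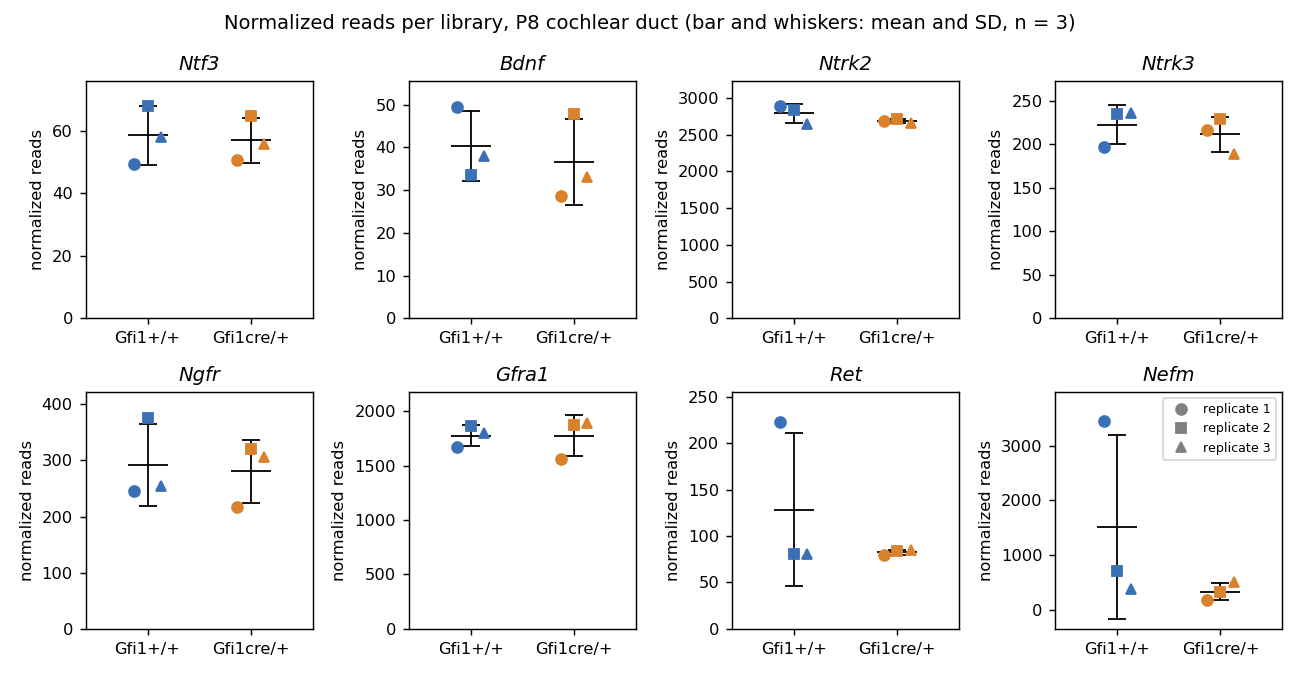
Normalized reads of the 7 genes and of *Nefm* in each library, in blue for *Gfi1*+/+ and orange for *Gfi1*cre/+, with the replicate number given by the symbol and the mean and SD (n = 3) by the bar and whiskers. The genotypes overlap in all 8 panels, and *Gfi1*+/+ replicate 1 lies far above the other 5 libraries for *Ret* (223) and *Nefm* (3449).

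Over the 7 genes, 0 had an adjusted p-value under 0.05, compared with 0.0277% of all genes tested, and 0 had an unadjusted p-value under 0.05 (the lowest was 0.215, for *Ret*, in limma), compared with 3.04% of all genes. The genotypes did not overlap for 0 of the 7, where they did not overlap for 7.52% of all genes. All 7 fitted differences were slightly below 0, with a median of -0.06 against -0.00012 for all genes tested, which had quartiles of -0.06 and 0.05. This shared sign did not hold when libraries were left out: without *Gfi1*+/+ replicate 1 the differences of *Bdnf* (0.0017) and *Ret* (0.03) were no longer below 0, and without *Gfi1*cre/+ replicate 1 those of *Ntf3* (0.05), *Bdnf* (0.0014), *Ngfr* (0.13) and *Gfra1* (0.09) were above 0. All 7 were read from the same 6 libraries, so their signs are not independent of each other. The edgeR and DESeq2 tests on the recovered reads also gave 0 calls among the 7 at an unadjusted p under 0.05.

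**Figure D3:**
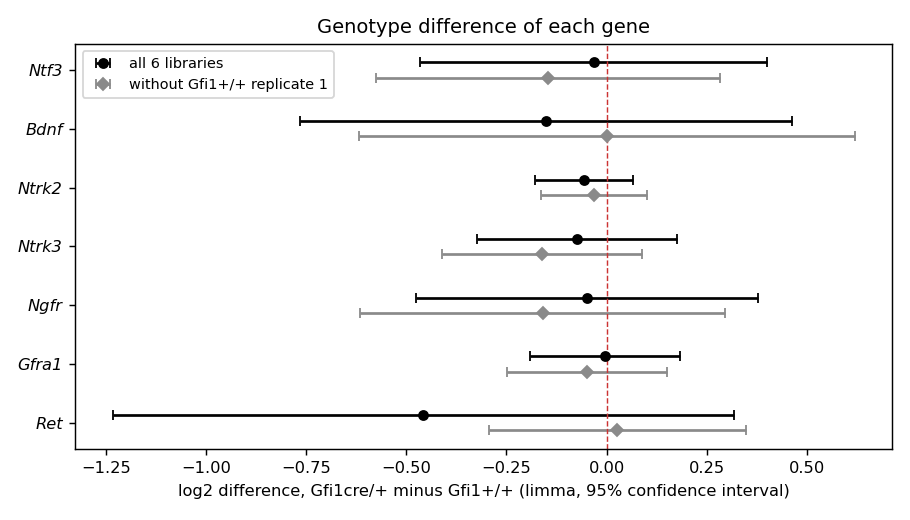
Log2 difference between the genotypes for each of the 7 genes, *Gfi1*cre/+ minus *Gfi1*+/+, with its 95% confidence interval from limma, over all 6 libraries (black) and without *Gfi1*+/+ replicate 1 (grey). All intervals include 0, the shortest is that of *Ntrk2*, and only the estimate of *Ret* moves by more than 0.4, from -0.46 to 0.03.

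Ligand and receptor were then compared within each library, where the size factor cancels. Per 1000 exon bases, *Ntf3* was 4.69 ± 0.457 times its receptor gene *Ntrk3* (SD, n = 6 libraries, range 4.12 to 5.19). By the longest transcript it was 3.11 to 3.92 times. This ratio depends on the length taken for *Ntrk3*, whose full-length TrkC transcripts run from 2678 to 19703 bases. *Bdnf* stood the other way round to its receptor gene, with *Ntrk2* at 18.2 to 30.1 times *Bdnf*, or 27.6 to 45.5 times by the longest transcript. Of the ligands, *Bdnf* was at 0.136 to 0.276 of *Ntf3*, and of the receptors, *Ntrk2* was at 17.5 to 23.0 times *Ntrk3*, or 25.2 to 33.2 times by the longest transcript. *Gfra1* was 24.3 to 28.5 times *Ret* in 5 libraries and 9.22 times in *Gfi1*+/+ replicate 1. None of the 5 ratios differed between genotypes in a two-sided exact permutation test (p = 0.8 to 0.9, adjusted p = 0.9), in which 3 against 3 libraries cannot go below 0.1. The log2 differences between genotypes in these ratios were 0.04 for *Ntf3* to *Ntrk3*, -0.09 for *Bdnf* to *Ntrk2*, -0.12 for *Bdnf* to *Ntf3*, 0.02 for *Ntrk2* to *Ntrk3* and 0.45 for *Gfra1* to *Ret*, the last being -0.08 without *Gfi1*+/+ replicate 1.

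*Nefm* stood at 3449, 712 and 378 normalized reads in *Gfi1*+/+ libraries, against 178, 315 and 499 in *Gfi1*cre/+ libraries, a range of 19.3-fold, and 19.2% of its exon bases are shared with the neighbouring *Nefl*. Its log2 difference between the genotypes was -1.68 (SE 0.695, adjusted p = 0.999, limma), and -0.77 (SE 0.391) without *Gfi1*+/+ replicate 1. *Ret* had the closest relation to *Nefm* over the 6 libraries, with a Pearson r of 0.90 (exact permutation p = 0.0458, adjusted over the 7 genes 0.16) and a Spearman rho of 0.60 (exact permutation p = 0.242, adjusted 0.83). Without the 2 libraries farthest from the median of *Nefm*, which were *Gfi1*+/+ replicate 1 and *Gfi1*cre/+ replicate 1, the r of *Ret* was -0.35, so the relation rested on those libraries. *Ntrk2* had an r of 0.81 (exact permutation p = 0.0278, adjusted 0.16) and a rho of 0.54 (exact permutation p = 0.297, adjusted 0.83), and its r was 0.67 without the same libraries. *Ntrk2* itself spanned only 1.09-fold between its lowest and highest library, against 19.3-fold for *Nefm*. *Bdnf* had an r of 0.59 (exact permutation p = 0.221, adjusted 0.515) and a rho of 0.49 (exact permutation p = 0.356, adjusted 0.83), and its r became -0.84 without those libraries. For *Ngfr*, *Gfra1*, *Ntf3* and *Ntrk3* r was 0.08, 0.00, -0.24 and -0.43 (exact permutation p = 0.883, 0.989, 0.706 and 0.422, adjusted 0.989, 0.989, 0.988 and 0.739), with rho of 0.26, 0.14, -0.09 and -0.20 (exact permutation p = 0.658, 0.803, 0.919 and 0.714, adjusted 0.919 for each). Leaving out the same 2 libraries gave r of 0.65, 0.25, 0.28 and -0.12 for these 4 genes. None of the 7 relations passed the correction. The 3 libraries of a genotype are too few to test a relation within it.

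**Figure D4:**
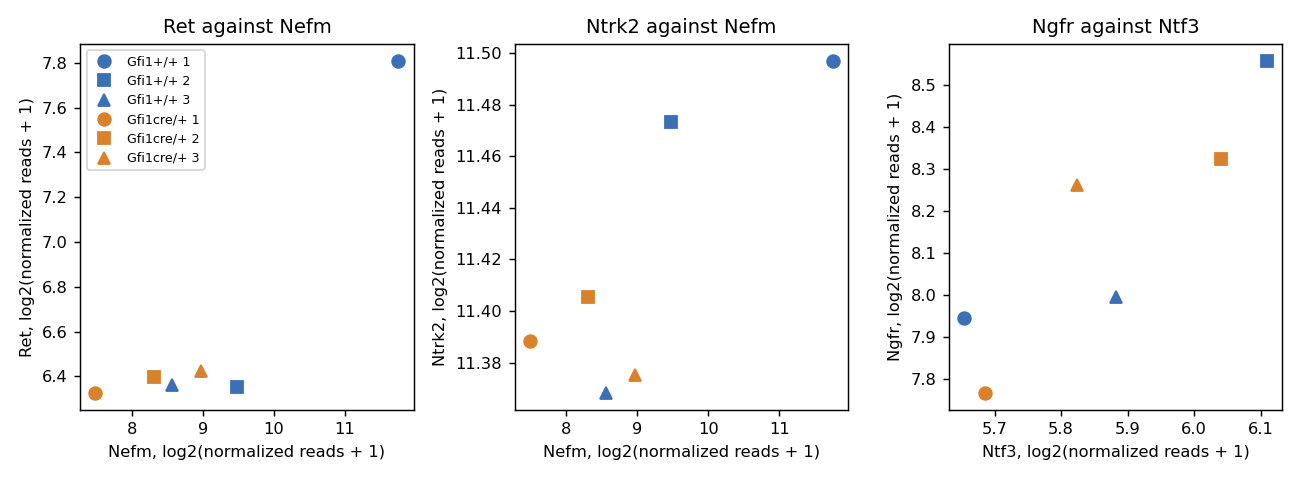
Log2(normalized reads + 1) of *Ret* and of *Ntrk2* against *Nefm*, and of *Ngfr* against *Ntf3*, with 1 point for each of the 6 libraries, blue for *Gfi1*+/+ and orange for *Gfi1*cre/+. The r of *Ret* with *Nefm* was 0.90 with *Gfi1*+/+ replicate 1 and 0.38 without it, and the r of *Ngfr* with *Ntf3* was 0.88.

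The 7 genes were also compared with each other, in 21 pairs. *Ntf3* and *Ngfr* had the highest r, 0.88 (exact permutation p = 0.0264, adjusted over the 21 pairs 0.292), with a rho of 0.89 (exact permutation p = 0.0333, adjusted 0.7). Both genes were highest in replicate 2 of each genotype, and r was 0.89 without *Gfi1*+/+ replicate 1 and 0.80 without the 2 libraries farthest from the median of *Ntf3*. *Ngfr* and *Gfra1* followed with an r of 0.86 (exact permutation p = 0.0278, adjusted 0.292) and a rho of 0.77 (exact permutation p = 0.103, adjusted 0.919), and r was 0.88 without the 2 libraries farthest from the median of *Ngfr*. The third of this group, *Ntf3* and *Gfra1*, had an r of 0.78 (exact permutation p = 0.0833, adjusted 0.438) and a rho of 0.54 (exact permutation p = 0.297, adjusted 0.992), and r was 0.77 without the 2 libraries farthest from the median of *Ntf3*. No pair passed the correction over 21 pairs. The ligand *Ntf3* and its receptor gene *Ntrk3* had an r of 0.66 (exact permutation p = 0.171, adjusted 0.598) and a rho of 0.66 (exact permutation p = 0.175, adjusted 0.919), which fell to an r of 0.40 without the 2 libraries farthest from the median of *Ntf3*. *Bdnf* and *Ntrk2* had an r of 0.43 (exact permutation p = 0.369, adjusted 0.862) and a rho of 0.49 (exact permutation p = 0.356, adjusted 0.992), and an r of -0.11 without the 2 libraries farthest from the median of *Bdnf*.

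For each gene, the genes with the most similar pattern over the 6 libraries were taken from the 3 highest Pearson r among the 10365 genes whose mean reached 200 normalized reads. They were *Dmd*, *Lims1* and *Chst15* for *Ntf3* (r = 0.98 to 0.99), *Pomt2*, *Asl* and *Drosha* for *Bdnf* (0.99 each), *S100a10*, *Ednrb* and *Bivm* for *Ntrk2* (0.99 each), and *Arhgap26*, *Usp42* and *Zbtb37* for *Ntrk3* (0.98 to 0.99). For *Ngfr* they were *Plk2*, *Slc6a6* and *Atr* (0.99 each), for *Gfra1* they were *Tgfb2* (0.99) and *Zfp516* (0.97), and for *Ret* they were *Tppp* and *Slc6a9* (0.996 each). With 6 libraries and 10365 genes, values of this size are a description of the ranking, and the number of genes at an r of at least 0.9 ran from 40 for *Bdnf* to 229 for *Ntrk2*. Without *Gfi1*+/+ replicate 1 the r of *Tppp* and *Slc6a9* with *Ret* was 0.60 and 0.74, while for the other 6 genes the r of the leading gene stayed at 0.98 or above.

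The remaining genes of the neurotrophin and GDNF family pathways were taken from lists by role. Of 92 listed genes, 81 were in the table and tested, and the 11 others were not analysed here. Of the 81, limma and edgeR each called 0 at an adjusted p-value under 0.05, and DESeq2 called 0 of the 80 that it tested. In limma, 1 of the 81 (1.23%) had an unadjusted p under 0.05, with 0 higher in *Gfi1*cre/+ (1.02% of all genes) and 1 lower (2.02% of all genes). The genotypes did not overlap for 5 of the 81 (6.17%), namely *Gfra4*, *Frs3*, *Sh2b2*, *Dok4* and *Vgf*. These shares were below those of all genes tested, and the median log2 difference of the 81 was 0.03, or -0.0014 without *Gfi1*+/+ replicate 1.

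None of the 4 other ligands in the table passed the unadjusted threshold. *Ntf5*, which encodes NT-4, the other TrkB ligand, measured 62.4 ± 5.64 normalized reads in *Gfi1*+/+ and 72.2 ± 8.79 in *Gfi1*cre/+ (SD, n = 3), with a log2 difference of 0.21. *Gdnf*, the ligand of GFRα1, measured 109.9 ± 6.76 and 101 ± 10.9 (-0.12), *Nrtn* (neurturin) 166 ± 27.2 and 183 ± 41.3 (0.13), and *Artn* (artemin) 76.7 ± 1.82 and 70.6 ± 6.34 (-0.12). The genotypes overlapped for all 4. On the scale of normalized reads per 1000 exon bases, *Ntf5* (25.4), *Gdnf* (28.7) and *Artn* (30.6) were close to *Ntf3*, and *Nrtn* was higher at 170.5.

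Among the 10 other receptors and co-receptors, *Ncam1* was the gene with an unadjusted p under 0.05. *Ncam1*, a cell adhesion molecule that can act as an alternative GDNF receptor, stood at 725, 569 and 464 normalized reads in *Gfi1*+/+ libraries, against 437, 496 and 444 in *Gfi1*cre/+ libraries. Its log2 difference was -0.33 (SE 0.141, unadjusted p = 0.0451, adjusted p = 0.999, limma), and none of the 81 genes passed the unadjusted threshold without *Gfi1*+/+ replicate 1, where *Ncam1* was highest and without which its log2 difference was -0.16. The GDNF family co-receptors *Gfra2* and *Gfra4* measured 125 ± 19.5 and 100.6 ± 2.31 normalized reads in *Gfi1*+/+ and 112 ± 5.96 and 87.9 ± 9.37 in *Gfi1*cre/+, with log2 differences of -0.15 and -0.20. The sortilin family, whose members bind pro-neurotrophins and sort neurotrophins and their receptors, had log2 differences of -0.06 to 0.15. *Sort1* measured 4287 ± 376 and 4463 ± 133 (0.06), *Sorcs1* 427 ± 95.4 and 403 ± 15.3 (-0.06), *Sorcs2* 2501 ± 207 and 2568 ± 126 (0.04), and *Sorcs3* 773 ± 83.8 and 853 ± 38.0 (0.15). The p75 partners of the Nogo receptor complex, *Lingo1* and *Rtn4r*, measured 536 ± 87.0 and 30.0 ± 15.4 in *Gfi1*+/+ and 503 ± 63.4 and 20.7 ± 10.2 in *Gfi1*cre/+ (-0.09 and -0.50). *Islr2*, which modulates Trk and RET signalling, measured 78.2 ± 29.8 and 60.9 ± 26.1 (-0.39). The fitted differences of this list had a median of -0.12, or -0.03 without *Gfi1*+/+ replicate 1. In that library 4 of its 10 genes were highest, beside 24.9% of all genes tested.

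Intracellular partners and targets were described by the same counts. Of 29 adaptors and signalling proteins of Trk and RET receptors, 0 passed the unadjusted threshold, with a median log2 difference of 0.05, or 0.0058 without *Gfi1*+/+ replicate 1. The difference farthest from 0 was that of *Frs3*, a docking protein of Trk receptors, at -0.21 (SE 0.127), and the highest level per 1000 exon bases was that of *Gipc1*, a scaffold protein of Trk receptors, at 977. Of 17 genes of p75 signalling, 0 passed, with *Bex1*, a p75-binding adaptor, farthest from 0 at -0.22 (SE 0.201) and *Maged1*, the p75-binding protein NRAGE, highest at 3964 per 1000 exon bases. Of 10 genes of neurotrophin maturation and release, 0 passed. *Hap1*, which takes part in the transport of BDNF, had the difference farthest from 0 at -0.44 (SE 0.262), with 792 normalized reads in *Gfi1*+/+ replicate 1 and 306 to 385 in the others, and the difference was -0.08 without that library. *Cpe*, the carboxypeptidase that also sorts proBDNF into secretory granules, was the highest of them at 2201 per 1000 exon bases. Of 11 genes that respond to neurotrophins, 0 passed. *Vgf*, a neurotrophin-induced gene of neurons, stood at 257, 12.6 and 5.27 normalized reads in *Gfi1*+/+ libraries, against 2.61, 3.55 and 4.72 in *Gfi1*cre/+ libraries, and its log2 difference of -2.62 (SE 1.21, adjusted p = 0.999, limma) became -1.02 (SE 0.697) without *Gfi1*+/+ replicate 1. With so few reads in *Gfi1*cre/+, this difference depends on the pseudocount. *Dusp6*, a phosphatase of the ERK pathway, was the highest of the response genes at 299 per 1000 exon bases and had a log2 difference of 0.00.

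**Figure D5:**
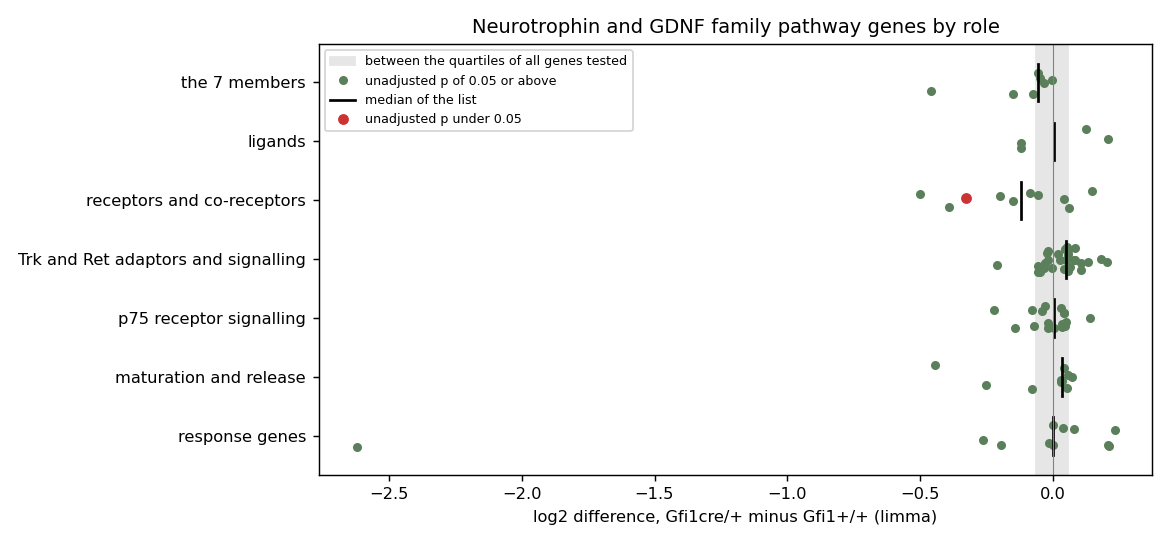
Log2 difference between the genotypes, *Gfi1*cre/+ minus *Gfi1*+/+, of the 7 genes and of the 81 other pathway genes, with 1 point for each gene, grouped by role, black lines for the medians and a grey band between the quartiles of all genes tested. The red point is *Ncam1* (-0.33), the gene with an unadjusted p under 0.05, and the point at -2.62 is *Vgf*.

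Cell type marker lists were counted in the same way, beside 2.02% of all genes lower and 1.02% higher in *Gfi1*cre/+ at an unadjusted p under 0.05, or 1.17% and 0.927% without *Gfi1*+/+ replicate 1. The 15 neuron markers had a median log2 difference of -1.04, and -0.44 without that library, and 7 of them were lower at that threshold, or 2 of them without that library. All 8 blood markers were higher at that threshold, with a median of 0.58 over the list. Without that library 3 of them were, with a median of 0.39 over the list. Of the endothelial markers 2 of 5 and of the strial markers 1 of 7 were higher, and 0 of either without that library, while 0 of the 11 hair cell markers, 0 of the 9 supporting cell markers, 0 of the 11 glial markers, 0 of the 7 macrophage markers and 0 of the 7 mesenchyme and bone markers passed. The hair cell markers had a median log2 difference of -0.12, or -0.11 without that library. The genotypes did not overlap for 2 of these 11, among them *Gfi1*, the gene altered in *Gfi1*cre/+, beside 7.52% of all genes. None of the marker lists held a gene with an adjusted p under 0.05 (limma). Whether the neuron or blood content of a library had a part in the values of the 7 genes was not tested.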

How the data were processed

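Cochlear duct RNA of 6 libraries was measured by RNA-seq. Per the labels and methods, the authors aligned paired-end reads to mm10 with TopHat, counted uniquely mapped reads on genes with HTSeq and dropped genes under 40 reads. Versions, annotation and strand setting are not given in the sources used here. The deposited table gives 1 signal per gene and library, which the authors describe as quantile-normalized. Dividing each column by its smallest step gave whole numbers for 100% of values (tolerance 0.1), so the deposited signal holds whole reads scaled by 1 size factor per library (0.810 to 1.15). Genotype and replicate number in the column names identified the sample of each of the 6 value columns, and 0 columns were left unmatched.

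The 14455 of 14865 genes that reached 40 normalized reads in 1 library or more were tested with limma 3.58.1 in R 4.3.3 (lmFit, eBayes with a trend) on log2(normalized reads + 1) with genotype as the only term, two-sided, with Benjamini-Hochberg adjustment over all genes tested. This scale understates the change of genes with few reads. Ratios, correlations and the order of levels were tested by exact permutation (Python 3.11.15). Exon lengths were taken from GENCODE (GRCm38), which held 14791 of the listed genes. Intervals from counts cover counting error only. Nothing in the labels says that *Gfi1*cre/+ pools shared no litter, and p-values measure the spread between these libraries. The steps were tested on simulated data, which for the limma fit had the same spread in both genotypes. In the real data, *Gfi1*+/+ libraries differed from each other more (chi-square per degree of freedom 18.9 to 20.7) than *Gfi1*cre/+ libraries (3.84 to 4.59). The simulation does not cover this unequal spread. The alternatives were other pseudocounts, minima and scalings, limma without a trend or with robust variances, a replicate block, edgeR 4.0.16 and DESeq2 1.42.0 on the recovered reads, and each library left out.

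The genes named were the 7 members, *Nefm*, *Gfi1*, all ligands and receptors of the pathway lists, from each other pathway list the genes with an unadjusted p under 0.05, the largest absolute log2 difference and the highest level per 1000 exon bases, and, of the 3 genes most similar to each member, those reported. Some genes that this rule names are not reported here. Genes whose genotypes did not overlap and single cell type markers are named besides, after their values were seen. The members, lists and tests were chosen with earlier results of these data known.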

Additional observations from a re-analysis of the deposited data

How the results depend on the processing

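The 7 genes had 0 calls at an unadjusted p under 0.05 wherever they were tested in the 19 settings. At a mean of at least 200 normalized reads, 4 of the 7 were tested. Their smallest adjusted p over all settings was 0.33, reached without *Gfi1*+/+ replicate 3 (limma). Of 328 recomputed values 277 kept their direction and their side of the threshold, and the cause of the changes below was not tested. The count of all genes with an adjusted p under 0.05 was 4, became 0 at a mean of at least 200 normalized reads, where fewer genes were tested, and 10 with DESeq2, and ran from 0 to 48 when libraries were left out, the 48 without *Gfi1*+/+ replicate 3, where 2340 genes had an unadjusted p under 0.05. The pathway genes with an unadjusted p under 0.05 numbered 1 of 81, beside 3.04% of all genes. They became 2 with quantile normalization (3.01% of all genes), 2 with edgeR (3.64%) and 0 with robust variances (2.80%). With libraries left out they ran from 0 to 16, the 16 again without *Gfi1*+/+ replicate 3, where 16.2% of all genes had such a p. In that setting *Pcsk2* alone of the pathway genes had an adjusted p under 0.05 (0.0208, limma).

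The replicate block gave 2 pathway genes with an unadjusted p under 0.05, beside 3.20% of all genes. It gave 4 genes with an adjusted p under 0.05 and changed no other call. Same-numbered libraries had correlations of their deviations of -0.09, 0.11 and -0.03. The libraries of replicate 2 correlated best with each other, and the other libraries did not correlate best with their own number. With 3 libraries per genotype, these values cannot show whether the numbers pair the libraries.

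The sign of small differences moved with the scaling. The log2 difference of *Gfra1* was 0.0101 with median centring and 0.000501 with TMM factors, that of *Ntf3* 0.0312 with quantile normalization, and that of the *Ntrk2* to *Ntrk3* ratio -0.0114 with quantile normalization. With libraries left out, the log2 differences ran from -0.15 to 0.081 for *Ntf3*, -0.36 to 0.0017 for *Bdnf*, -0.16 to 0.0050 for *Ntrk3*, -0.16 to 0.15 for *Ngfr*, -0.052 to 0.086 for *Gfra1* and -0.70 to 0.027 for *Ret*. Those of the ratios ran from -0.024 to 0.14 for *Ntf3* to *Ntrk3*, -0.29 to 0.057 for *Bdnf* to *Ntrk2*, -0.35 to 0.15 for *Bdnf* to *Ntf3*, -0.068 to 0.13 for *Ntrk2* to *Ntrk3* and -0.075 to 0.73 for *Gfra1* to *Ret*. The correlation of *Gfra1* with *Nefm* was -0.0029 with a pseudocount of 10, -0.096 with the neuron list in place of *Nefm* and -0.0099 on deviations from genotype means, and that of *Ngfr* -0.015 with quantile normalization. Without the 2 libraries farthest from the median of *Nefm* it was 0.28 for *Ntf3*, -0.84 for *Bdnf* and -0.35 for *Ret*. With single libraries left out it ran from -0.67 to 0.70 for *Ntf3*, -0.63 to 0.025 for *Ntrk3*, -0.41 to 0.86 for *Ngfr* and -0.84 to 0.82 for *Gfra1*.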
